A study of Mus musculus with 16 samples.

Results

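Liver RNA of wild type (WT) mice given carbon tetrachloride (CCl4) was compared with that of WT controls, gene by gene and by cell compartment. The comparison rests on 9 arrays, 5 labelled WT CCl4 and 4 labelled WT control, out of 16 in the series, and the groups came from the sample titles. All animals were male BALB/c mice of 6 to 8 weeks, with 1 Agilent array of whole liver RNA for each. CCl4 was injected into the peritoneum at 0.5 ml/kg, diluted 1:5 in corn oil, 2 times a week for 4 weeks, and livers were collected 48 h after the last injection. Per the study's methods the controls received corn oil. The other 7 arrays came from Lcn2-/- mice, which lack lipocalin 2, and entered the shared normalization, the statistical model (3 control, 4 CCl4) and the check of Lcn2 signal.

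CCl4 is itself harmless until the cytochrome P450 enzymes of hepatocytes, Cyp2e1 above all, turn it into a radical. These enzymes are concentrated around the central vein, so injury is centred there, and portal hepatocytes are largely spared. Repeated injury brings in macrophages and turns hepatic stellate cells, the vitamin A-storing cells of the sinusoid, into collagen-producing myofibroblasts. Hepatocytes also differ by position along the lobule and by sex: in mice, the pulsed male pattern of growth hormone keeps one set of liver genes on and another off, and the reverse holds in females. Values below are log2 signals after quantile normalization, a difference is CCl4 minus control on that scale, and levels of different genes are not set against each other because probes differ in brightness.

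Of 24363 genes tested with limma, 1951 (8.01%) were higher after CCl4 and 2143 (8.8%) were lower at an adjusted p under 0.05, 16.8% in all. The median difference over all genes was -0.03. Of the genes that passed, 1185 higher and 702 lower ones differed at least 2-fold. These percentages are the background for the counts of this fit in the gene lists below. There were 56 lists with 1469 tested genes in all. The counts moved with the processing. Without WT control 1 there were 1349 higher and 1148 lower genes, and with arrays scaled to their 75th percentile 1579 and 3562. With WT control 3 left out there were 2460 and 2649. List counts under another setting have the counts over all 24363 genes in that setting as their background. P-values measure the spread between these animals, 1 array each. In whole liver, fewer cells of a type and less RNA per cell cannot be told apart.

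The 75th percentile of raw signal ran from 842 to 1482 in the WT controls and from 1225 to 2067 after CCl4. In the WT arrays 54.2% to 60.9% of spots exceeded background clearly, no gene spot was saturated, and pairs of arrays of a group correlated at 0.976 to 0.992 over genes. Lcn2 probe signal was 13.79 to 17.57 in WT arrays and 10.47 to 12.25 in Lcn2-/- arrays. Among the controls, WT control 3 stood apart from the other 3 controls in immune and mitosis genes. WT control 1 to 4 and WT CCl4 1 lay on slide 1 while WT CCl4 2 to 5 lay on slide 2, and the scan follows the slide, so only WT CCl4 1 was compared with controls of its own slide.

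**Figure D1:**
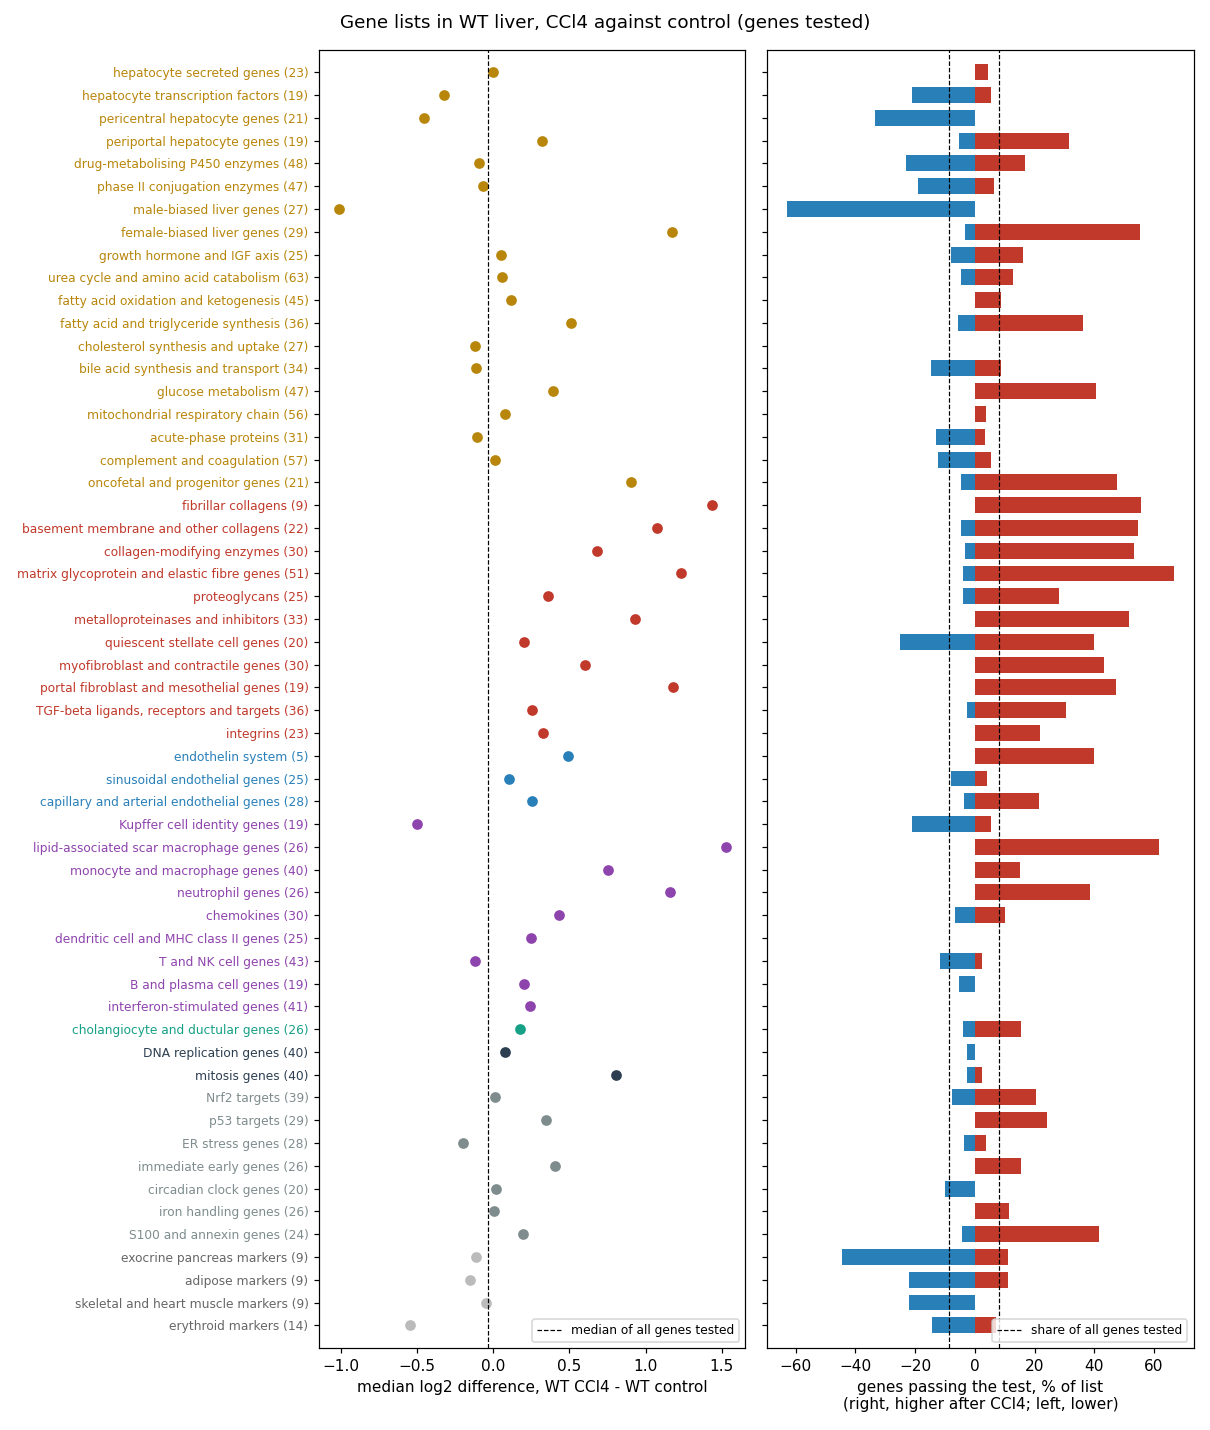
Median log2 difference (left) and percentage of genes higher or lower at an adjusted p under 0.05 (right) for each gene list, with the number of genes tested in brackets and label colour by compartment. Dashed lines give the same over all 24363 genes. Lipid-associated scar macrophage genes have the highest median at 1.53 and male-biased liver genes the lowest at -1.01.

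Most genes of the structural matrix lists that passed were higher. Of 9 fibrillar collagen genes tested, 5 were higher and 0 lower, with a list median of 1.43. Col1a1, a chain of type I collagen, read 11.73, 11.07, 13.98 and 12.03 in WT control 1 to 4 and 15.66, 16.20, 16.12, 15.54 and 14.94 in WT CCl4 1 to 5. Every CCl4 array lay above every control, and WT control 3 was the nearest to them. The probe lies at chr11:94813115-94813174 (mm9, plus strand). Col1a1 was 11.2-fold higher (3.49 ± 0.45 SE, adjusted p = 0.000133), Col1a2 7.43-fold and Col3a1 6.22-fold. Col5a2, which helps start fibrils, was 4.75-fold higher (adjusted p = 0.00337).

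Among the other collagens 12 of 22 were higher and 1 was lower (median 1.07). Col4a1 of the basement membrane rose by 1.21 with overlapping groups, Col6a1 rose 6.54-fold, and Col4a5 rose from between 7.74 and 8.34 to between 10.43 and 11.02. Col4a6 was the lower one (-0.82 ± 0.17, adjusted p = 0.00393). Col15a1, found around vessels, differed by 1.08 and did not pass (adjusted p = 0.203).

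Enzymes that fold and crosslink collagen followed, with 16 of 30 higher and 1 lower (median 0.68). The crosslinking oxidases Loxl1, Loxl2 and Lox were 6.84-fold, 2.66-fold and 5.07-fold higher. Lox was well above background on 1 of 4 controls. The collagen chaperone Serpinh1 was 3.28-fold higher, with controls at 11.13, 11.13, 12.18 and 11.22 and CCl4 arrays at 12.90 to 13.46. The prolyl hydroxylase P3h1 was the lower one (-0.57, adjusted p = 0.0449), and did not pass in 11 of 18 alternative settings. Lox did not pass in 13 of 18 alternative settings (log2 0.83 to 2.99), nor did a further Lox probe (1.18). For Loxl2, 2 further probes on chromosome 14 gave 1.27 (adjusted p = 0.0246) and 0.44, and a probe assigned to it on chromosome 2 gave -0.30. A further P3h1 probe gave the opposite sign without passing (0.43).

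Matrix glycoproteins and elastic fibre genes had the highest share of any list, 34 of 51 higher and 2 lower (median 1.23). Thbs4, a thrombospondin, was not well above background on any control (2.88 to 2.92) and reached 10.58 to 12.20 after CCl4, at least 87.0-fold higher (adjusted p = 1.01e-05). Ltbp2, a microfibril protein, read 9.25, 8.96, 9.88 and 9.38 in the controls and 13.28, 13.58, 13.31, 12.69 and 12.31 after CCl4. These groups lay apart, and the difference was 12.7-fold (3.66 ± 0.35, adjusted p = 1.47e-05). Sparcl1 was 10.4-fold, Dpt (dermatopontin) 8.0-fold, Thbs2 5.59-fold and Eln (elastin) 3.08-fold higher.

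Fn1, fibronectin, which hepatocytes secrete to plasma in bulk, read 17.84 to 18.10 in the controls and 17.75 to 18.06 after CCl4 and did not pass (-0.09 ± 0.09, adjusted p = 0.583). The lower glycoproteins were Lama3, a laminin chain (-1.27), and Ecm1 (-0.69), a further probe of which did not pass (-0.54, adjusted p = 0.408).

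Proteoglycans moved less, with 7 of 25 higher and 1 lower (median 0.36). Lum (lumican) was 6.86-fold and Esm1, made by endothelium, 10.1-fold higher. Dcn (decorin) rose by 0.60 ± 0.17 with overlapping groups and did not pass in 10 of 18 alternative settings, and Bgn (biglycan) differed by 1.10 and did not pass (adjusted p = 0.0872). Vcan (versican) cannot be given a direction: the brighter probe was lower (-0.72 ± 0.19, adjusted p = 0.0189), while a dimmer probe read 4.52 on average in the controls and 7.69 after CCl4, a difference of 3.17 (adjusted p = 0.0019).

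Proteases of the matrix and their inhibitors were higher in 17 of 33 cases and lower in 0 (median 0.93). Mmp2, a gelatinase of mesenchymal cells, read 8.01, 7.49, 8.57 and 8.39 in the controls and 12.07, 12.20, 11.99, 11.94 and 11.47 after CCl4, a 14.1-fold rise (adjusted p = 8.02e-07). Mmp12, the macrophage elastase, was 72.6-fold higher but was well above background on only 2 of 4 controls, and a further probe differed by 2.13 and did not pass (adjusted p = 0.0947). Mmp13, the main interstitial collagenase of rodents, rose by 1.03 ± 0.32 (adjusted p = 0.0412). WT CCl4 1 at 8.53 lay among the controls (8.13 to 9.51), so within slide 1 its difference was -0.07.

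The inhibitor Timp1 read 9.06, 7.5, 11.28 and 9.09 in the controls and 11.04, 11.29, 10.66, 10.24 and 10.74 after CCl4. WT control 3 lay within the CCl4 range, and the gene did not pass with it (1.56, adjusted p = 0.0812) and did without it (adjusted p = 0.0033). Timp2 was 2.78-fold and Adam8, a leukocyte protease, 13-fold higher.

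**Figure D2:**
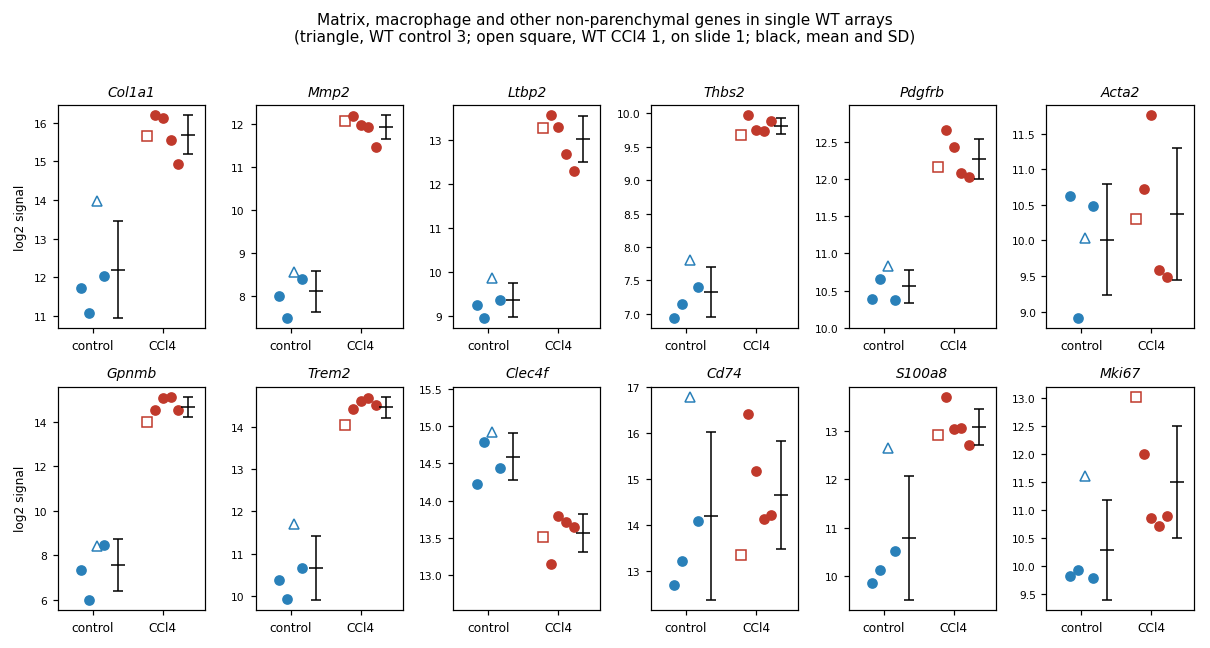
Log2 signal of 12 genes in each WT array (y axes differ, each spanning at least 3 units), with the mean and SD of each group in black. WT control 3 (triangle) lies near the other controls for Mmp2 and Ltbp2 and apart from them for Cd74, S100a8 and Mki67. WT CCl4 1 (open square) has the highest Mki67 at 13.02.

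Stellate cell and fibroblast genes were divided. Of 30 myofibroblast and contractile genes, 13 were higher and 0 lower (median 0.60). Pdgfrb, the receptor through which PDGF drives stellate cells, was 3.27-fold higher, with controls at 10.38, 10.65, 10.83 and 10.38 and CCl4 arrays at 12.16, 12.65, 12.43, 12.08 and 12.03. Prrx1, a transcription factor of mesenchyme, was 6.85-fold higher. Cthrc1 was not well above background on any control and was at least 1.44-fold higher.

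The contractile markers Acta2 and Tagln did not pass. Acta2, alpha smooth muscle actin, read 10.62, 8.91, 10.03 and 10.48 in the controls and 10.30, 10.72, 11.76, 9.59 and 9.49 after CCl4, so the groups overlapped (0.36 ± 0.43, adjusted p = 0.618). Tagln (transgelin) differed by -0.79 (adjusted p = 0.208).

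Genes of resting stellate cells went both ways, 8 of 20 higher and 5 lower. Lrat, which esterifies vitamin A, was 2.09-fold higher (controls 9.76 to 10.49, CCl4 10.72 to 11.32). Adamtsl2 rose by 1.62 and Reln (reelin) by 0.87, the latter not passing without WT control 3 (adjusted p = 0.068). Hhip, a hedgehog inhibitor, fell 6.68-fold, and Ngfr fell by 0.88. Hgf, the hepatocyte growth factor, differed by 0.40 (adjusted p = 0.0673).

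Among portal fibroblast and mesothelial genes 9 of 19 were higher and 0 lower (median 1.18). Wt1, a transcription factor of mesothelium and its descendants, was 11.8-fold higher, with controls at 8.33, 6.44, 8.16 and 7.5 and CCl4 arrays at 11.84, 11.44, 10.99, 10.76 and 10.80. Cd34 was 4.36-fold higher. Msln (mesothelin) and Gas1 differed by 0.29 and 0.71 and did not pass.

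TGF-beta, the main fibrogenic cytokine, is made as a latent form that integrins release. Of 36 ligand, receptor and target genes, 11 were higher and 1 lower (median 0.25). Tgfb3 was 6.18-fold higher (controls 7.94 to 9.27, CCl4 11.34 to 11.72) and Tgfb2 2.27-fold. Tgfb1 differed by 0.47 ± 0.22 and did not pass (adjusted p = 0.157). Of the targets, Ccn2 (CTGF) was 3.54-fold higher.

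Of 23 integrin genes 5 were higher and 0 lower. Itga8, carried by stellate cells, was 5.98-fold higher, Itgax, carried by myeloid cells, 16.9-fold higher, and Itgav differed by 0.08. Of 5 endothelin system genes, which control sinusoidal tone, Edn1 was 2.15-fold and Ednra 1.40-fold higher (adjusted p = 0.00207 and 0.0305). Ednra did not pass in 8 of 18 alternative settings and Edn1 in 1. Ednrb differed by 0.41 (adjusted p = 0.0966).

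Endothelial genes were counted in 2 lists. Of 25 sinusoidal endothelial genes 1 was higher and 2 were lower, near the background. The scavenger receptor Stab2 was lower by a small margin (-0.43 ± 0.13), Clec4g differed by -0.17 and did not pass, and Lyve1 rose by 1.52, with WT control 3 at 10.24 among the CCl4 arrays (10.03 to 10.59). Of 28 capillary and arterial genes 6 were higher (21.4%) and 1 lower. Vwf (0.39) and Pecam1 (0.11) did not pass.

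Macrophage genes split by type. Of 26 genes of the lipid-associated macrophages that gather at scars, 16 were higher and 0 lower, with the highest median of all lists (1.53). Gpnmb, a glycoprotein of these cells, read 7.32, 5.99, 8.43 and 8.47 in the controls and 14, 14.52, 15.07, 15.12 and 14.53 after CCl4, a 137-fold rise (7.10 ± 0.56, adjusted p = 2.89e-06). Trem2, their lipid receptor, read 10.37, 9.93, 11.71 and 10.65 and then 14.06, 14.44, 14.63, 14.70 and 14.54, a 14.1-fold rise.

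In both genes the lowest CCl4 array lay more than 2 log2 units above the highest control. Atp6v0d2, a subunit of the lysosomal proton pump, was 25.2-fold, Ctsk, the collagen-cutting cathepsin K, 41.7-fold and the lysosomal tetraspanin Cd63 7.90-fold higher. Cd9 differed by 1.03 and missed the threshold (adjusted p = 0.0523).

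Identity genes of Kupffer cells, the resident macrophages, were lower in 4 of 19 cases and higher in 1 (median -0.50). WT control 3 lay 1.15 above the other controls over this list, and without it 3 were lower, 1 was higher and the median was -0.12. Clec4f, a marker of Kupffer cells in mice, read 14.23, 14.79, 14.92 and 14.43 in the controls and 13.52, 13.15, 13.79, 13.71 and 13.64 after CCl4, a 2.04-fold fall (adjusted p = 0.00533). Timd4 fell by 1.29 and Cd163 by 1.73, the latter being well above background on 1 of 5 CCl4 arrays. Timd4 did not pass without WT control 3 (adjusted p = 0.073). Vsig4 differed by -0.70 with no overlap between groups and did not pass (adjusted p = 0.0579). Cd207, listed with them, rose 4.43-fold.

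The remaining immune lists depended on WT control 3 as well. Over 40 monocyte and macrophage genes this array lay 2.04 above the mean of the other 3 controls (median over genes), while the CCl4 arrays lay 1.35 above those same 3 controls. With WT control 3, 6 of the 40 were higher, and without it 22. Ms4a7 rose 9.49-fold and Lyz2 (lysozyme) 5.51-fold with all 4 controls. Adgre1, a pan-macrophage marker, read 10.85, 11.52, 13.33 and 11.56 in the controls and 12.06 to 12.88 after CCl4 (adjusted p = 0.37), and Ccr2 differed by 0.94 (adjusted p = 0.417 with WT control 3 and 0.047 without it).

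Of 26 neutrophil genes 10 were higher and 0 lower, and 14 were higher without WT control 3, which lay 2.46 above the other controls. S100a8 read 9.85, 10.12, 12.66 and 10.51 in the controls and 12.91, 13.72, 13.05, 13.07 and 12.71 after CCl4 (adjusted p = 0.0341). S100a9 rose 3.88-fold (adjusted p = 0.0463). In 18 alternative settings S100a8 did not pass in 9 and S100a9 in 10. The granule genes Ltf and Ngp rose 20.0-fold and 17.0-fold, each well above background on 1 of 4 controls. Ly6g, the surface marker of mouse neutrophils, differed by -0.06 and did not pass.

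Lcn2 itself, made by neutrophils and by injured hepatocytes, read 13.79, 14.58, 17.57 and 14.69 in the controls and 14.38, 16.48, 15.07, 14.22 and 14.27 after CCl4. WT control 3 was the highest of the 9, and the difference was -0.27 ± 0.67 (adjusted p = 0.825). Without WT control 3 its sign turned to 0.53 (adjusted p = 0.502).

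Of 30 chemokine genes 3 were higher and 2 lower, and without WT control 3 the counts were 8 and 2. Cxcl14 (5.08-fold) and Cx3cl1 (4.84-fold) rose and Ccl24, which attracts eosinophils, fell by 1.32. Ccl2, Cxcl1 and Cxcl10 differed by 1.19, 0.20 and 0.62 and did not pass. For Ccl2 the controls read 8.74, 8.78, 13.97 and 10.84, so that WT control 3 alone exceeded every CCl4 array (10.32 to 13.25).

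In dendritic cell and MHC class II genes 0 of 25 passed, in interferon-stimulated genes 0 of 41, and in B and plasma cell genes 0 of 19 were higher and 1 lower. Without WT control 3, 3 MHC class II and dendritic cell genes and 7 interferon-stimulated genes were higher. In that fit 2460 of all 24363 genes were higher. Cd74, the MHC class II chaperone, read 12.70, 13.23, 16.78 and 14.09 in the controls and 13.35, 16.41, 15.18, 14.14 and 14.21 after CCl4. The groups overlapped fully, and H2-Ab1 did the same (0.93, adjusted p = 0.581). Cd209a, Isg15, Ifit1, Irf7, Ms4a1 and Jchain differed by 1.00, -0.31, -0.26, 0.03, 0.38 and 0.49 and did not pass.

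Of 43 T and NK cell genes 1 was higher and 5 were lower (median -0.12). Without WT control 3, which lay 2.13 above the other controls, 3 were higher and 3 lower and the median turned to 0.27. Il7r, well above background on 2 of 4 controls, rose 17.4-fold, with controls at 3.37, 4.50, 7.68 and 6.49 and CCl4 arrays at 8.88 to 10.07. Cd4 and Cd3e fell by 1.13 and 0.88, with overlapping groups. A further Cd4 probe differed by -0.24 (adjusted p = 0.258), and Cd3e did not pass in 6 of 18 alternative settings. Ncr1 of NK cells (0.41) and Cd8a (0.09) did not pass.

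**Figure D3:**
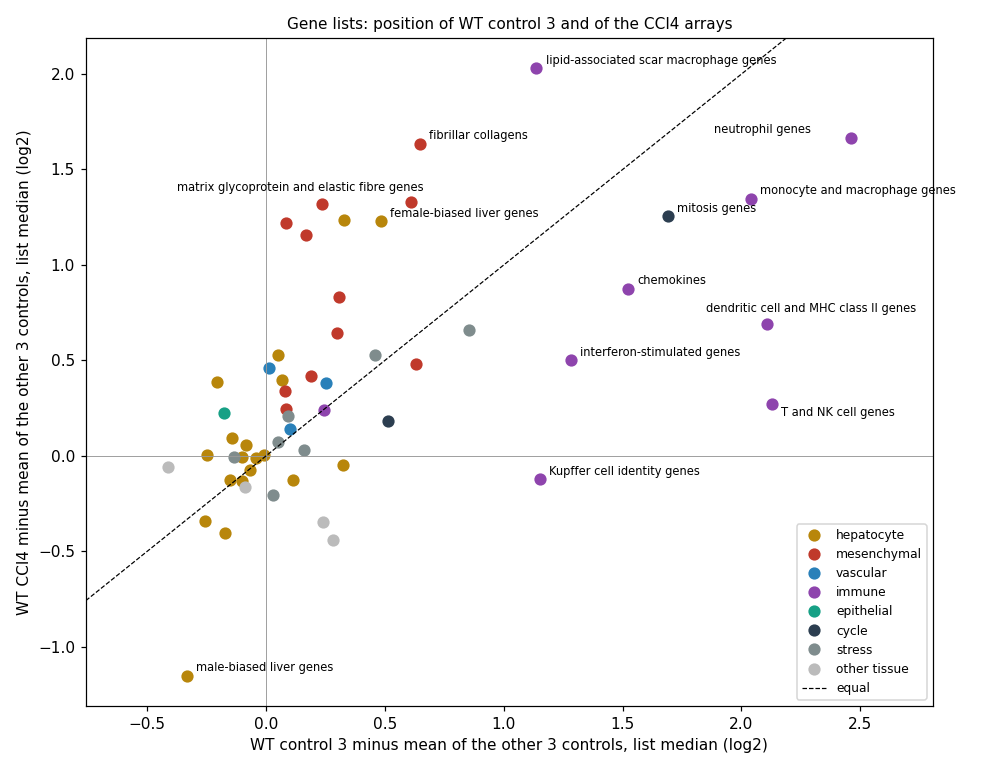
Each point is a gene list. The x axis gives WT control 3 and the y axis the mean of the 5 CCl4 arrays, each minus the mean of the other 3 controls (median over the list, log2), and the dashed line marks equal distance. Neutrophil, monocyte, T and NK, dendritic, chemokine, interferon and mitosis lists lie below the line, where WT control 3 exceeds the CCl4 arrays, while scar macrophage genes lie above it at 1.14 and 2.03.

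Few genes of secreted hepatocyte products passed. Of 23 secreted and structural genes 1 was higher and 0 were lower (median 0.00). Alb (albumin) read 18.89 to 18.96 in the controls and 18.81 to 19.07 after CCl4, a difference of 0.05 ± 0.09. Ttr and Apoa1 differed by 0.10 and -0.15 and Hnf4a, the central hepatocyte transcription factor, by 0.05. This depended on the scaling: with each array set to its 75th percentile the median of all genes moved to -0.16, that of this list to -0.50, and 10 of its 23 genes were lower. Under that scaling 11 pericentral, 20 P450, 22 conjugation and 21 male-biased genes were lower, while matrix glycoproteins (31 higher, 3 lower) and fibrillar collagens (5 higher, 0 lower) hardly moved. Among hepatocyte transcription factors 1 of 19 was higher and 4 were lower. Irx1 fell from 8.91, 9.10, 8.42 and 8.54 to a signal that no CCl4 array placed well above background, at least 15-fold lower. Nr1i3 (CAR), the xenobiotic receptor, fell 2.52-fold (adjusted p = 0.00119), and Cebpa differed by -0.20.

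Zonation genes that passed were mostly lower when pericentral and higher when periportal. Of 21 pericentral genes 0 were higher and 7 lower, and of 19 periportal genes 6 were higher and 1 lower, the rest not passing. The pericentral median was -0.11 in WT CCl4 1 and -0.44 in WT CCl4 2 to 5, and 3 genes were lower with slide in the model. Glul (glutamine synthetase), confined to the hepatocytes next to the central vein, read 16.08, 16.24, 16.20 and 15.87 in the controls and 13, 13.89, 14, 13.92 and 13 after CCl4. It fell 5.79-fold (adjusted p = 6.31e-06, probe at chr1:155756765-155756824, mm9, plus strand). Its neighbours in the same cells fell too, the aminotransferase Oat 12.6-fold and the glutamate transporter Slc1a2 87.2-fold (13.53 to 14 against 5.96 to 8.42).

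Slc13a3 fell by 1.45. Cyp2e1, the enzyme that activates CCl4, read 18.90, 18.88, 18.79 and 18.72 and then 18.72, 18.70, 18.71, 18.76 and 18.58, a difference of -0.13 ± 0.09 that did not pass (adjusted p = 0.375). A further Cyp2e1 probe, well above background on all 9 arrays, fell from a mean of 18.64 in the controls to 17.93 after CCl4 (-0.71, adjusted p = 0.000789 over all probes), so the probes disagree on whether this gene passed. Of the periportal genes, Sds (serine dehydratase) rose 2.68-fold and Aldh1b1 3.01-fold, and Igfals fell by 1.04. Cyp2f2, a periportal P450, differed by 0.04.

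Drug-metabolising enzymes went both ways. Of 48 P450 genes 8 were higher and 11 lower, and of 47 conjugating enzymes 3 were higher and 9 lower. Cyp2b10, a target of Nr1i3, rose 5.93-fold and Cyp2c29 fell by 0.65. Cyp2g1 fell 5.60-fold, and Cyp3a11 differed by 0.44 (adjusted p = 0.0546) on its brightest probe and by 1.33 (adjusted p = 0.00161) on a further one. Of the conjugating enzymes, Ugt2b1 fell 2.75-fold and Sult5a1 15.5-fold, while Gstp1 and Sult1a1 differed by -0.37 and -0.26 and did not pass. Members of these families share sequence, so a probe may read a close relative.

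The clearest split within hepatocytes followed sex bias. Of 27 male-biased genes 0 were higher and 17 lower (median -1.01), and of 29 female-biased genes 16 were higher and 1 lower (median 1.17), in animals that were all male. The summed linear signal of the female-biased list overlapped, at 284357 to 419228 in the controls and 187807 to 403127 after CCl4. That of the male-biased list was 3.44e+06 to 4.18e+06 and then 2.35e+06 to 2.92e+06. Bright probes weigh most in such sums. All CCl4 arrays lay above all controls in 16 of the female-biased genes (8.02% over all genes) and below them in 15 of the male-biased ones (9.42% over all genes). Hsd3b5, a steroid dehydrogenase of male liver, read 17.87, 17.77, 17.14 and 17.79 in the controls and 11.48, 12.01, 14.64, 11.94 and 11.87 after CCl4. Each CCl4 array was lower than each control, and the fall was 38.2-fold (-5.25 ± 0.80, adjusted p = 0.000452).

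WT CCl4 3 fell least in Hsd3b5, and it did so again in Slco1a1, an organic anion carrier (controls 14.59 to 15.39, CCl4 9.38, 10.71, 12.85, 10.19 and 10.36). The oxysterol hydroxylase Cyp7b1 fell 12-fold, the fatty acid elongase Elovl3 9.57-fold, the fatty acid hydroxylase Cyp4a12a 4.21-fold and the complement component C6 3.43-fold. Susd4 fell 101-fold, from 14.60 to 15.31 down to 7.36 to 8.79.

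In 3 female-biased genes the same array was the nearest to the controls. Sult2a1, a bile acid sulfotransferase, was not well above background on any control (2.91 to 2.96) and read 7.80, 6.77, 5.31, 8.76 and 8.77 after CCl4, at least 4.76-fold higher (adjusted p = 9.36e-05). Sult2a2 read 9.57, 8.14, 6.61, 10.80 and 10.13 after CCl4 and was at least 14.1-fold higher. Cyp2b9 read 5.49, 4.13, 6.05 and 6.54 in the controls and 9.93, 8.30, 6.94, 10.20 and 10.20 after CCl4, an 11.8-fold rise. WT CCl4 3 was the lowest CCl4 array in these 3 genes. It differed from the other CCl4 arrays by -0.90 over the female-biased list and by 0.49 over the male-biased list (medians over genes).

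Hao2 rose 25.5-fold, Cyp4a14 19.7-fold and Cyp3a44 12.2-fold, with Hao2 and Cyp2b9 well above background on 3 of 4 controls. Not every female-biased gene followed: Cyp17a1 (-0.93) and Sult1e1 (0.88) did not pass, and Cyp2a4 was lower (-1.19, adjusted p = 0.0169). Genes of the growth hormone axis, which sets this bias, were higher in 4 of 25 cases and lower in 2. Igf1, Ghr and Socs2 differed by -0.39, -0.16 and -0.96 and did not pass, but a further probe of Ghr, the growth hormone receptor, did (-0.54, adjusted p = 0.00385).

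**Figure D4:**
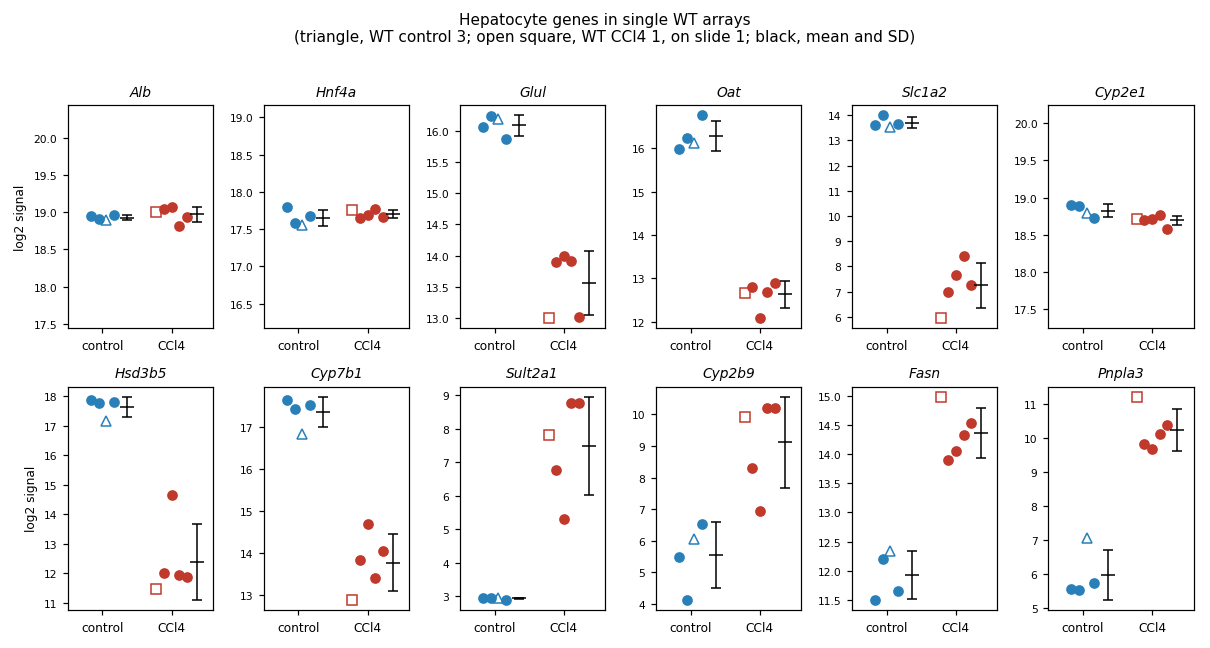
Log2 signal of 12 hepatocyte genes in each WT array (y axes differ, each spanning at least 3 units), with the mean and SD of each group in black. Alb, Hnf4a and Cyp2e1 overlap between groups, Glul, Oat, Slc1a2, Hsd3b5 and Cyp7b1 lie lower after CCl4 with no overlap, and Sult2a1, Cyp2b9, Fasn and Pnpla3 lie higher.

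Genes of fatty acid synthesis and of glucose metabolism were higher more often than the background. Of 36 fatty acid and triglyceride synthesis genes 13 were higher and 2 lower (median 0.51). Fasn (fatty acid synthase) read 11.51, 12.20, 12.35 and 11.66 in the controls and 14.98, 13.90, 14.05, 14.32 and 14.52 after CCl4, a 5.38-fold rise (adjusted p = 0.000316). Elovl6 rose 4.85-fold, Scd2 6.93-fold, Scd1 2.82-fold and Pnpla3, a lipase of lipid droplets, 19.4-fold. Of these, Scd1 (adjusted p = 0.0393) did not pass in 9 of 18 alternative settings. Pnpla5 of the same family rose 37.4-fold, being well above background on 1 of 4 controls. Fitm1, a droplet protein, fell 21.2-fold.

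Of 47 glucose metabolism genes 19 were higher and 0 lower (median 0.39), or 11 and 2 with scaling to the 75th percentile. Eno2 rose 6.03-fold and Pygb 4.46-fold, forms of enolase and glycogen phosphorylase that adult hepatocytes hardly use. G6pc of gluconeogenesis rose 2.20-fold, and Pck1 differed by 0.19. Without WT control 3, G6pc did not pass (adjusted p = 0.09). Pkm and Hk2 differed by 1.04 and 1.14 and did not pass (adjusted p = 0.112 and 0.159). Each passed in 2 of 18 alternative settings, including the fit without WT control 3 (adjusted p = 0.0043 and 0.014).

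In cholesterol synthesis and uptake 0 of 27 genes passed (Sqle -0.14). In the respiratory chain 2 of 56 were higher and 0 lower (Ndufa9 0.17, Sdhb 0.08, Cox4i1 0.16), and in fatty acid oxidation 4 of 45 were higher and 0 lower, Cpt1a differing by 0.06. With scaling to the 75th percentile, 5 cholesterol, 9 respiratory chain and 8 oxidation genes were lower. Under that scaling 3562 of all 24363 genes were lower.

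Of 63 urea cycle and amino acid genes 8 were higher and 3 lower, or 3 and 5 with that scaling, against 1579 and 3562 of all 24363 genes. Without WT control 3 the counts were 5 higher and 4 lower, against 2460 and 2649 of all genes. Cps1 (0.11) and Tat (0.55) did not pass. Among 34 bile acid genes 3 were higher and 5 lower, or 10 lower with that scaling, and 5 were higher and 5 lower without WT control 3. Cyp39a1 rose 14.3-fold and the basolateral exporter Abcc3 fell 2.68-fold, while Cyp7a1, the rate-limiting enzyme, Abcb11, the export pump, and Slc10a1, the uptake carrier, differed by 0.49, 0.18 and 0.02.

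Acute-phase genes were not higher as a group, with 1 of 31 higher and 4 lower, or 12 lower with scaling to the 75th percentile. Orm2 fell by 0.92 and Orm3 fell by 2.38. Hamp2 rose 8.56-fold while its neighbour Hamp (hepcidin), the hormone that controls iron, differed by 0.22. Of 57 complement and coagulation genes 3 were higher and 7 lower, or 17 lower with that scaling. The counts without WT control 3 were 6 higher and 7 lower, against 2460 and 2649 of all 24363 genes. Plat, well above background on 3 of 4 controls, rose 11.7-fold, and C1qa (0.68) and F7 (0.16) did not pass.

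Oncofetal genes, low in adult liver, were higher in 10 of 21 cases and lower in 1 (median 0.91). Afp (alpha-fetoprotein) read 9.52, 9.29, 10.63 and 9.59 in the controls and 15.85, 14.09, 12.09, 12.66 and 12.59 after CCl4. WT CCl4 1 was the highest, and the rise was 13-fold (3.70 ± 0.63, adjusted p = 0.001). H19, an imprinted RNA of fetal liver, rose 56.2-fold, Gpc3 19.3-fold, Spink1 11.1-fold and Dlk1 (well above background on 3 of 4 controls) 8.07-fold. Of 26 cholangiocyte genes 4 were higher and 1 lower. Bicc1 rose 4.17-fold, whereas Krt19 (0.42), Krt7 (0.72) and Sox9 (0.12) did not pass.

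Mitosis genes were highest in WT CCl4 1, WT CCl4 2 and WT control 3, whose list medians lay 2.26, 1.39 and 1.27 above the control mean against 0.40, 0.17 and 0.22 in WT CCl4 3 to 5. Of 40 genes 1 was higher and 1 lower, although 39 had a positive difference (median 0.81). Mki67, carried by all cycling cells, read 9.81, 9.93, 11.60 and 9.77 in the controls and 13.02, 12, 10.84, 10.71 and 10.89 after CCl4 (1.21 ± 0.53, adjusted p = 0.139).

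WT control 3 exceeded 3 of the 5 CCl4 arrays, and WT CCl4 1 exceeded all. Over the list WT CCl4 1 lay 1.75 above the other CCl4 arrays and WT control 3 lay 1.69 above the other controls. Without WT control 3, 11 genes were higher. Cdk1, the kinase that starts mitosis, was the higher gene (2.29-fold, adjusted p = 0.0402), did not pass in 10 of 18 alternative settings and differed by 0.20 on a further, dim probe, and Cep55 the lower one (-1.94). Top2a (1.31) and Ccnb1 (0.75) did not pass. Of 40 replication genes 0 were higher and 1 lower, and Mcm5, Pcna and Rrm2 differed by 0.31, 0.21 and 0.53.

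Promoters of mitosis genes are known for CCAAT boxes and for an element with the core TTTGAA. In the 250 bases before the start site in RefSeq (build GRCm38.p6), 25 of 34 mitosis genes with a promoter in the table held CCAAT or its reverse complement ATTGG, 73.5% against 34.5% of 27025 promoters. TTTGAA or TTCAAA stood in 11 of 34, 32.4% against 16.3%. CCAAT was also frequent in other lists, standing in 16 of 19 cholesterol genes (84.2%), 19 of 25 ER stress genes (76%) and 21 of 34 replication genes (61.8%), and TTTGAA stood in 15 of 40 P450 genes (37.5%). The promoters of 3 genes are shown because their signals followed the same arrays, with both motifs in capitals, 5′ to 3′ on the gene's strand, which is the minus strand for each. Cdk1 lies at chr10:69352913-69353162, Mki67 at chr7:135716380-135716629 and Top2a at chr11:99024190-99024439.
Cdk1: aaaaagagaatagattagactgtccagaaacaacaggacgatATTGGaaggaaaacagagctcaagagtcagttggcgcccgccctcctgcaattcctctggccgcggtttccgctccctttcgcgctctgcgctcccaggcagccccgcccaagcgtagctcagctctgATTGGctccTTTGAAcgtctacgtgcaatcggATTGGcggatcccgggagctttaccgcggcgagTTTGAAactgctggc
Mki67: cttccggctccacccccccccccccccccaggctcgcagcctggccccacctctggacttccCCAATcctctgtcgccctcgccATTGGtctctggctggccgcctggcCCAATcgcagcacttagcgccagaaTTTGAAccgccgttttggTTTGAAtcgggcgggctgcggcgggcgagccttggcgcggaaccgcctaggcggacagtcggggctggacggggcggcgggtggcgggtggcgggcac
Top2a: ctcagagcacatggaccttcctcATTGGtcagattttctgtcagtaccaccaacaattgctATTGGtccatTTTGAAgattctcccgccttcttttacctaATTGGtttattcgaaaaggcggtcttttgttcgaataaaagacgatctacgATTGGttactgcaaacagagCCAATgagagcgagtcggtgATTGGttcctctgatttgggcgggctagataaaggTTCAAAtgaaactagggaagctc

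Of the shown promoters Cdk1 and Mki67 held 3 CCAAT-type matches each and Top2a held 6, and all had 2 TTTGAA-type matches. TTCNNNGAA, the palindrome bound by STAT factors, was searched after values were seen. It stood in 4 of 20 male-biased and 1 of 19 female-biased promoters, against 7.18% of all. The male-biased share (20%) was matched or exceeded in bile acid (20%), interferon-stimulated (23.3%), dendritic cell and MHC class II (23.5%) and acute-phase promoters (36%, 9 of 25). These are matches of letters and not binding sites.

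Stress lists differed in how many genes passed. Of 39 Nrf2 targets 8 were higher and 3 lower, and Cbr3 rose 2.10-fold while the standard targets Nqo1, Hmox1 and Gclc differed by -0.17, -0.50 and -0.38 and did not pass. A further Hmox1 probe was lower (-0.66, adjusted p = 0.0213). With scaling to the 75th percentile, 10 Nrf2 targets were lower and 4 higher. Of 29 p53 targets 7 were higher and 0 lower, or 11 without WT control 3. Phlda3 rose 6.60-fold, whereas Cdkn1a (p21) read 8.12, 8.32, 11 and 8.52 and then 10.21, 12.87, 11.04, 10.05 and 10.34. Cdkn1a did not pass (adjusted p = 0.071). It passed in 2 of 18 alternative settings, including the fit without WT control 3 (adjusted p = 0.0092). Mdm2 and Ccng1 differed by 0.30 and 0.32.

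Of 28 ER stress genes 1 was higher and 1 lower, or 7 lower with scaling to the 75th percentile, with Hspa5, Ddit3 and Atf4 at -0.07, 0.08 and -0.04. Atf3 rose 5.54-fold and Egr2 6.99-fold among 26 immediate early genes, of which 4 were higher and 0 lower, or 9 without WT control 3. Fos, Jun and Egr1 differed by 1.39, 0.75 and -0.69.

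Of 20 clock genes 0 were higher and 2 lower. Nr1d1 fell by 1.22 and Bhlhe41 by 1.55, the latter being well above background on 3 of 5 CCl4 arrays, and Arntl (adjusted p = 0.998), Per2 (0.65) and Dbp (0.03) did not pass. Of 26 iron genes 3 were higher and 0 lower, with Slc40a1 at -0.18 and Tfrc at 0.76 (adjusted p = 0.0544), a further probe of which passed (0.91, adjusted p = 0.0268). Among 24 S100 and annexin genes 10 were higher and 1 lower. Anxa2 rose 3.14-fold, S100a11 2.84-fold and S100a6 3.24-fold, and S100g, not well above background on any control, was at least 4.85-fold higher.

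Below the leading 3 genes in each direction came genes of several compartments. Higher were H19, Ctsk and Sult2a2 (above), Prss46 (at least 10.9-fold), Mlana (at least 11.9-fold), the serotonin receptor Htr2b (at least 17.1-fold), Scube1 (34.7-fold), Sfrp5, a Wnt inhibitor (31.9-fold), and Tinag (27.9-fold), with Scube1 and Sfrp5 well above background on 1 and Tinag on 3 of 4 controls. Lower were Hsd3b5, Slco1a1 and Fitm1 (above), Trex2 (22.3-fold), the probe for Pax2 (21.6-fold), Gm6329 (at least 7.65-fold), the proton pump subunit Atp12a (19.4-fold), Obp2a (18.8-fold), Lipn (16.5-fold) and 4930455J16Rik (15.7-fold). Trex2 was well above background on 1, Obp2a on 4 and 4930455J16Rik on 2 of 5 CCl4 arrays. The Pax2 probe read 16.62 to 17.67 in the controls, a high signal for a kidney transcription factor, and whether it reads another transcript was not tested.

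Markers of neighbouring tissue were checked as a whole. Of 22 pancreas markers listed, 9 were measurable, with a summed linear signal of 7584 to 12732 in the controls and 10077 to 26920 after CCl4, and 1 was higher and 4 lower. Adipose markers (1 of 9 higher, 2 lower) and muscle markers (0 of 9 higher, 2 lower) summed to 362423 to 411507 and 2946 to 3672 in the controls and to 301142 to 394771 and 2156 to 3624 after CCl4. Erythroid markers had a median of -0.55, and of -1.30 in WT CCl4 1. The part of these tissues in the results was not tested.

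Programmes differed in how far WT CCl4 1, on slide 1, departed from WT CCl4 2 to 5, on slide 2. With slide as a term in the model, the estimate is that of WT CCl4 1 against the controls, and 1302 genes passed, 805 higher and 497 lower. There were then 23 higher matrix glycoprotein genes, 9 scar macrophage, 10 fatty acid synthesis, 7 oncofetal and 7 female-biased ones, and 9 lower male-biased ones. The medians were 1.25, 1.15, 0.85, 0.96, 1.57 and -1.04 in that order. Other lists had the following medians in WT CCl4 1 and then in WT CCl4 2 to 5. Glucose metabolism read 0.57 and 0.35, metalloproteinases 0.97 and 0.93, and immediate early genes 0.44 and 0.46. Endothelin genes read 0.36 and 0.49, S100 and annexin genes 0.08 and 0.23, and p53 targets 0.26 and 0.40. Nrf2 targets read 0.10 and -0.04, monocyte genes 0.52 and 0.90, and neutrophil genes 1.06 and 1.19. Male-biased genes had the same median, -1.04, in WT CCl4 2 to 5. Mitosis genes read 2.26 and 0.53, although WT CCl4 2 alone read 1.39, and 12 passed with the slide term. T and NK (-0.75 and 0.01), interferon-stimulated (-0.63 and 0.39) and chemokine genes (-0.25 and 0.73) were lower in WT CCl4 1. With 1 array, the slide and that animal cannot be told apart.

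**Figure D5:**
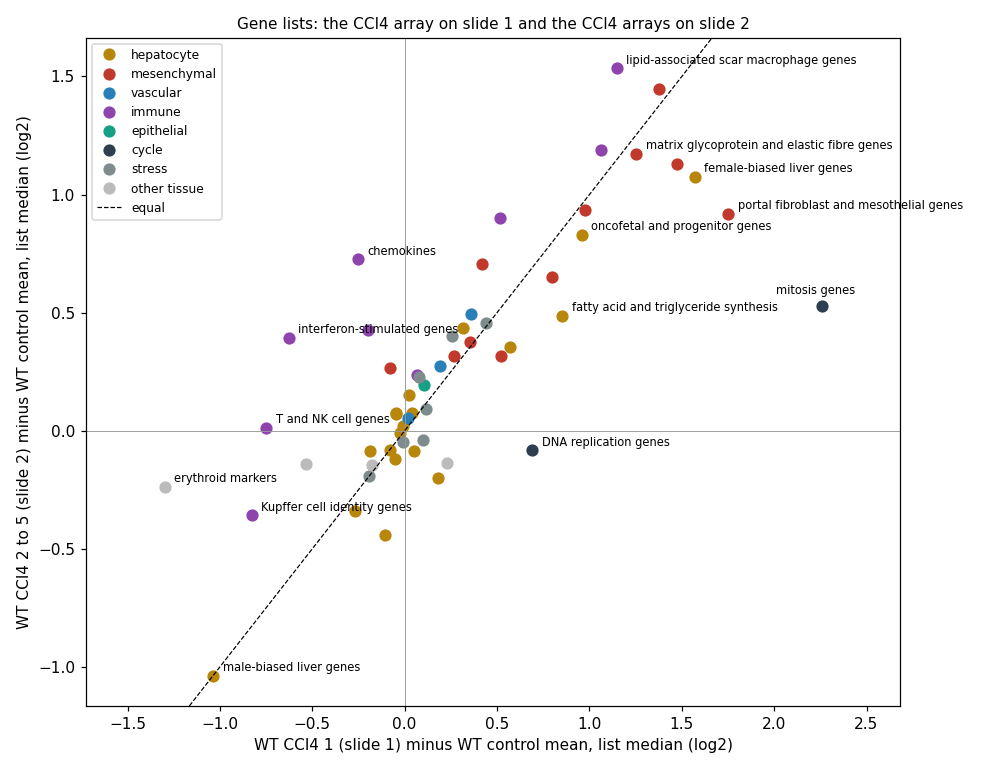
Each point is a gene list. The x axis gives WT CCl4 1, on slide 1, and the y axis WT CCl4 2 to 5, on slide 2, each minus the mean of the 4 controls (median over the list, log2), with equality dashed. Male-biased, matrix and oncofetal lists lie near the line, while mitosis genes lie to the right of it at 2.26 and 0.53 and interferon-stimulated genes to the left at -0.63 and 0.39.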

How the data were processed

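Arrays were 1-colour Agilent mouse arrays. The authors labelled RNA with Cy3 and scanned it, and per the file headers Agilent Feature Extraction (10.7.3.1) gave the spot intensity on a linear scale, background-subtracted and not normalized between arrays. The authors also deposited a log2 value table, which equals quantile-normalized log2 of median signal minus median background for 99.86% of values within 0.05, and which served as an alternative. Array number limits the precision.

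Of 62976 spots, 3671 control spots and spots marked as outliers were left out, and log2 processed signal was quantile normalized over 16 arrays. Probes (55681, of which 121 had no unmarked spot on some array) were kept when well above background on at least 3 arrays (33022), and the brightest probe stood for each gene. RefSeq names (GRCm38.p6) matched 49.8% of gene spots by accession, and the file's name was kept otherwise. Probe positions are on mm9, and exon or UTR location was not analysed here. limma (3.58.1, R 4.3.3) was fitted over 4 groups with Benjamini-Hochberg adjustment at 0.05. Where a probe was dim on all arrays of its lower group, the fold is a lower bound: the mean of the brighter group was divided by a floor, which on each array was the dimmest signal still scored as well above background, or the dim probe's own signal if that was larger. In simulated data for this comparison (24363 genes), 54% of genes changed by 1 log2 unit and 93% of those changed by 3 were recovered. The simulated noise was independent between genes and arrays, and 100 genes were changed at each size. No slide difference or outlying array was built in, so these rates need not hold for the real arrays.

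Named genes were ranks 4 to 13 in each direction among genes that passed without overlap, the key genes of each list and up to 3 called genes each way per list, with the leading 3 added. A few genes that this rule names are not reported here. Gene lists and members were chosen with earlier results of these data known. Alternatives were scaling to the 75th percentile, normexp (offset 50), the deposited table, WT arrays only, slide and replicate blocks, array weights, no filter, a 2-fold minimum and leaving out each array. STAT-type and E-box motifs were searched after values were seen, and the E-box (TCACNTG or CANGTGA) stood in 3 of 20 scar macrophage promoters against 14.2% of all.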

Additional observations from a re-analysis of the deposited data

Results flagged for a closer look

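Groups of 4 and 5 arrays were searched for an array whose gap to the nearest of the others exceeds the 95% critical value of Dixon's test, over the named genes and the list medians. Of 584 groups, 56 held such an array, against 29.2 that chance alone gives at 1 in 20, and 31 of the 56 were WT control 3. In WT control 3, the log2 signal lay above the rest of its group at 9.53 for Ctsk (the others 8.68 to 8.80), 6.46 for Pnpla5 (the others 2.96 to 3.36), 14.61 for Col3a1 (the others 12.91 to 13.16), 11.85 for Col4a1 (the others 10.95 to 11.03), 11.42 for Loxl2 (the others 10.18 to 10.33), 12.18 for Serpinh1 (the others 11.13 to 11.22), 4.15 for Cthrc1 (the others 2.91 to 2.97), 10.24 for Lyve1 (the others 8.16 to 8.22), 8.29 for Ltf (the others 5.17 to 5.31), 8.52 for Cd209a (the others 6.21 to 6.61), 15.92 for Isg15 (the others 14.63 to 14.81), 14.25 for Elovl6 (the others 13.73 to 13.80), 7.04 for Pnpla3 (the others 5.52 to 5.72), 12.26 for Scd2 (the others 10.60 to 10.81), 10.96 for Spink1 (the others 8.32 to 8.62), 11.21 for Mcm5 (the others 9.63 to 9.71), 11.50 for Rrm2 (the others 10.31 to 10.46), 11.60 for Mki67 (the others 9.77 to 9.93), 11 for Cdkn1a (the others 8.12 to 8.52), 12.16 for Phlda3 (the others 10.03 to 10.34) and 12.12 for S100a11 (the others 10.42 to 10.54). In WT control 3, the log2 signal lay below the rest of its group at 17.14 for Hsd3b5 (the others 17.77 to 17.87), 7.06 for 4930455J16Rik (the others 8.95 to 9.19) and 11.63 for Nr1d1 (the others 12.30 to 12.38). In WT control 3, the list median, as a difference from the control mean, lay above the rest of its group at 0.48 for fibrillar collagens (the others -0.22 to -0.18), 0.47 for integrins (the others -0.20 to -0.10), 0.96 for interferon-stimulated genes (the others -0.35 to -0.29), 0.39 for DNA replication genes (the others -0.16 to -0.14), 1.27 for mitosis genes (the others -0.51 to -0.24) and 0.12 for Nrf2 targets (the others -0.07 to -0.05). In WT control 3, the list median, as a difference from the control mean, lay below the rest of its group at -0.19 for urea cycle and amino acid catabolism (the others 0.05 to 0.08). In WT control 2, the log2 signal lay below the rest of its group at 11.60 for Sparcl1 (the others 12.32 to 12.46), 7.54 for Adamtsl2 (the others 8.30 to 8.45), 7.94 for Tgfb3 (the others 9.07 to 9.27) and 10.83 for Itga8 (the others 11.32 to 11.39). In WT control 4, the log2 signal lay above the rest of its group at 2.92 for Thbs4 (the others 2.88 to 2.89). In WT control 4, the log2 signal lay below the rest of its group at 2.91 for Sult2a1 (the others 2.95 to 2.96). The Thbs4, Sult2a1 and Cthrc1 probes were not well above background on any control. In WT control 1, the log2 signal lay above the rest of its group at 11.05 for Msln (the others 9.37 to 9.64). In WT CCl4 1, the log2 signal lay above the rest of its group at 14.17 for Pcna (the others 13.63 to 13.77). In WT CCl4 1, the log2 signal lay below the rest of its group at 7.56 for Mlana (the others 8.94 to 9.39), 5.09 for Col15a1 (the others 6.04 to 6.32), 7.67 for Sult5a1 (the others 9.67 to 10.32) and 15.71 for Cpt1a (the others 16.33 to 16.53). In WT CCl4 1, the list median, as a difference from the control mean, lay above the rest of its group at 0.57 for glucose metabolism (the others 0.31 to 0.37) and 0.69 for DNA replication genes (the others -0.25 to -0.03). In WT CCl4 1, the list median, as a difference from the control mean, lay below the rest of its group at -1.30 for erythroid markers (the others -0.36 to -0.06). In WT CCl4 2, the log2 signal lay above the rest of its group at 10.74 for Ccr2 (the others 9.19 to 9.57) and 14.64 for Phlda3 (the others 12.94 to 13.15). In WT CCl4 2, the log2 signal lay below the rest of its group at 13.66 for Vsig4 (the others 14.10 to 14.14). In WT CCl4 2, the list median, as a difference from the control mean, lay above the rest of its group at 0.33 for B and plasma cell genes (the others 0.07 to 0.12) and 0.90 for p53 targets (the others 0.26 to 0.40). In WT CCl4 3, the log2 signal lay above the rest of its group at 14.64 for Hsd3b5 (the others 11.48 to 12.01). In WT CCl4 3, the log2 signal lay below the rest of its group at 12.08 for Oat (the others 12.67 to 12.89). In WT CCl4 3, the list median, as a difference from the control mean, lay above the rest of its group at 0.06 for ER stress genes (the others -0.27 to -0.19). In WT CCl4 5, the log2 signal lay below the rest of its group at 9.59 for Itgav (the others 10.38 to 10.54) and 16.07 for Cps1 (the others 16.52 to 16.61).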

How the results depend on the processing

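Against 4094 genes called (1951 higher, 2143 lower), scaling to the 75th percentile gave 3562 lower genes (5141 called), moved the median of all genes from -0.03 to -0.16 and put the share of higher calls at 30.7% against 47.7%. Slide as a fixed block gave 1302 (805 higher, 497 lower, 61.8% higher), array weights 7052 (3113 and 3939) and a 2-fold minimum 1887 (1185 and 702). Leaving out 1 array gave 2497 to 5109 called, 1349 to 2460 higher and 1148 to 2649 lower. The lowest counts came without WT control 1 (2497, of which 1148 lower) and WT control 2 (2581, of which 1187 lower), and the highest without WT control 3. The other settings, normexp, the deposited table, WT arrays only, slide as a random block and no filter, gave 3775 to 4436 called. The cause of these shifts was not tested, apart from the slide term, whose estimate rests on 1 CCl4 array.

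Slc10a1 read -0.49 with 75th percentile scaling (adjusted p = 0.0404) and Mmp13 -0.068 with the slide block, against 0.02 and 1.03. The sign of Slc10a1 also turned, without passing, in 2 fits that left out an array, and that of Mmp13 in no other setting. Of 145 named genes called, 144 kept their sign in every setting and 84 were called in every one, 58 were lost with the slide block and 25 in at least 1 fit without an array. The calls lost most often in 18 settings were Lox (13), P3h1, G6pc and Mmp13 (11 each), and Dcn, S100a9 and Cdk1 (10 each). Next came S100a8 and Scd1 (9 each), Ednra and Stab2 (8 each), Reln (7), Timd4, Cd3e and Igfals (6 each) and Lyve1 (5). Of 30 further probes of called named genes, 27 had the same sign, 21 of them called, and 3 had the opposite sign. Of 30 further probes of named genes not called, 5 were called. Whether equal replicate numbers marked paired animals cannot be told from these arrays. Deviations from the group means correlated at 0.05, -0.07, -0.06 and 0.17 for equal numbers. For unlike numbers they correlated at -0.32 to 0.43. The replicate block gave 3784 calls (1752 higher, 2032 lower), 3330 of them shared. The number of arrays, 4 and 5, limits the precision, and probes that stay dim in a whole group give only bounds.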
